A study of Mus musculus with 8 samples.

Results

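The genes described here are 40 markers of endothelium and of endocardium, the endothelial lining of the heart. They were chosen by name from a list of such markers, with earlier results of these data known. Each was read on its brightest probe set that carries a single gene symbol, and all 40 had one among the 18193 genes named in the annotation. A signal counted as above background on an array when it was higher than 90% of the signals of the 27 probe sets for bacterial transcripts on the same array. By this measure 21 of the 40 genes were above background on all 8 arrays, and these are given separately from the other 19.

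The samples were pools of mouse atrioventricular canal, the segment of the embryonic heart in which the cushions that become valves form. The 4 control pools were Gata4flox/flox, and the 4 mutant pools were Gata4flox/flox; T2Cre+ (Gata4T2del), so the floxed Gata4 allele was shared by all 8. Both groups had a mixed C57BL6/129 background, and the sources used here do not give the embryos' age. Each pool held 10 dissected canals, and 50 ng of its RNA was amplified isothermally and hybridised to an Affymetrix mouse array. In T2Cre the promoter of Tie2 (official symbol Tek) drives Cre, so that recombination occurs in endothelial cells and their descendants, cushion mesenchyme among them. No label gives Cre to the control pools, so an effect of Cre itself and an effect of losing Gata4 cannot be told apart. The design text states that 2 control samples were excluded for noise without naming them, and all 4 deposited control arrays were used.

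Endothelial cells are recognised by proteins of their junctions, by glycoproteins on the surface that faces the blood, by receptors for signals carried in the blood, and by regulators of clotting. In the canal the endocardium is also the source of cushion mesenchyme, which it forms by an epithelial to mesenchymal transition in which cells leave the lining and enter the matrix beneath it. The zinc finger factor Gata4 regulates heart genes and is expressed in both endocardium and cushion mesenchyme. The comparison of mutant with control pools asks which of these genes have another level in the canal when endothelial cells and their descendants lack Gata4.

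Gata4, the targeted gene, had log2 values of 11.15, 11.06, 11.42 and 11.38 on control arrays 1 to 4 and 11.10, 11.28, 11.18 and 10.93 on mutant arrays 1 to 4, and differed by -0.15 (SE 0.11, limma adjusted p = 0.585). Whether its probe set lies in the deleted part was not examined here, and cells outside the Cre lineage keep the gene, so this does not check the labels. Of the cell types of the canal, all 18 cardiomyocyte markers and 18 of 20 cushion mesenchyme markers were above background on all arrays. Summed signals, here and below, add the deposited values without further normalization, from arrays that differed in background. They were 151000 to 182000 in control and 187000 to 211000 in mutant pools for cardiomyocytes, and 58200 to 66200 and 52400 to 61000 for mesenchyme. At an unadjusted p under 0.05, 10 of 18 cardiomyocyte markers were higher and 0 lower, 1 of 20 cushion mesenchyme markers was higher and 8 lower, and 7 of 10 tested epicardial markers were higher and 0 lower, where 7.31% and 5.61% of all tested genes were, and no marker of these lists passed limma's adjusted threshold. Of 12 epicardial markers 9 were above background on all arrays, with summed signals of 7360 to 7900 in control and 8290 to 13200 in mutant pools. The part of these cell types in the results on endothelial genes was not tested.

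The arrays themselves differed in background. The background threshold was at a signal of 316 on control 2 and 270 on control 3, at 97.5 and 51.1 on controls 1 and 4, and at 21.4 to 65.4 on the mutant arrays. Controls 2 and 3 had 23 and 28 of the 40 genes above background, controls 1 and 4 had 37 and 36, and the mutant arrays had 38 to 40. Over all probe sets the share above background was 44.4% to 61% on control arrays and 64.1% to 72.6% on mutant arrays, and it was lowest, 44.4% and 48%, on controls 2 and 3.

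**Figure D1:**
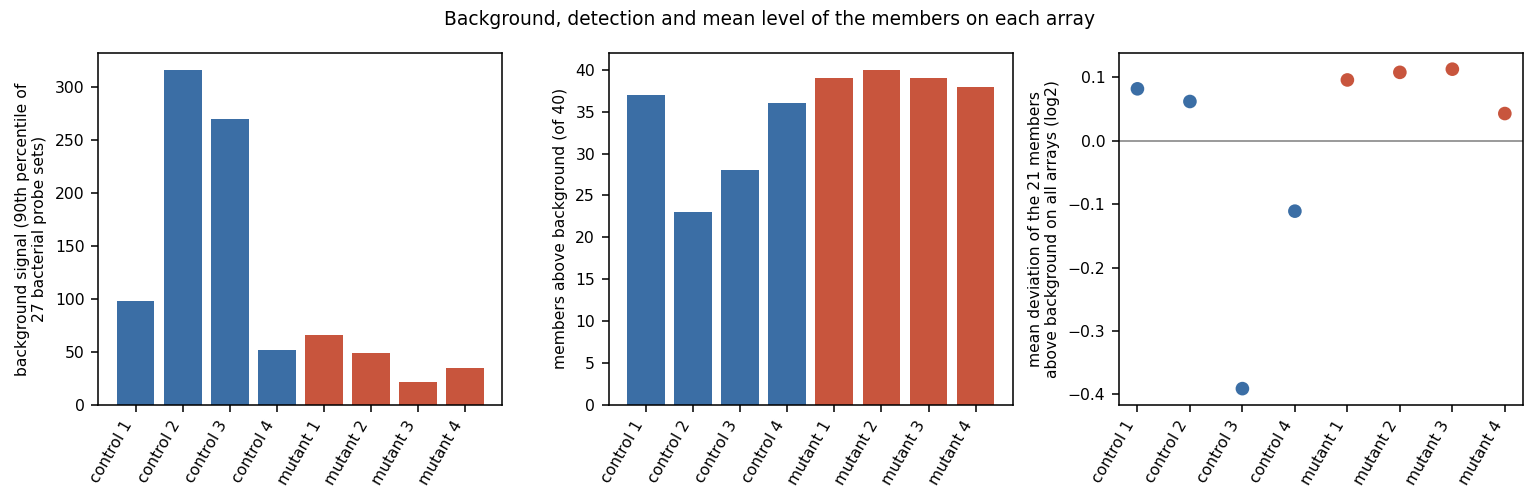
The left panel plots the background signal of each array (90th percentile of the bacterial probe sets), the middle panel the number of the 40 genes above it, and the right panel the mean log2 deviation of the 21 genes above background on every array from their own means over 8 arrays. Control 2 and control 3 have the highest background and the fewest detected genes, and control 3 has the lowest mean deviation, -0.39, against 0.04 to 0.11 on the mutant arrays.

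Values are given below as quantile normalized log2(signal + 16), and a log2 difference is mutant minus control from a limma fit over 27022 probe sets that gave noisier arrays less weight. The added 16 makes the differences of dim genes smaller. Overlap between groups refers to these normalized values and differed for some genes with the authors' scaling, which keeps the deposited signals. None of the 39 endothelial genes that passed the filter on low signal was past an adjusted p of 0.05 in limma in either direction, where 0.0414% of 12069 tested genes were called higher and 0.0249% lower on their brightest probe set. At an unadjusted p under 0.05, 11 were higher and 3 lower (28.2% and 7.69%), where 7.31% and 5.61% of the tested genes were. In 8 of the 39 all mutant values exceeded all control values and in 2 all were below them, where 4.97% and 3.19% of the tested genes did so. Positive differences were found in 26 and negative in 13, where 53.2% and 46.8% of the tested genes had them. Of the 39, 35 were above background on at least 2 arrays of each group. Among these 35, 10 were higher and 2 lower at an unadjusted p under 0.05 (28.6% and 5.71%). Without overlap 6 of the 35 were higher and 2 lower (17.1% and 5.71%). The shares of all tested genes to set beside these are those given above. Those shares were not limited to genes above background on at least 2 arrays of each group, so the 2 sets are not alike. Because the genes were chosen with earlier results of these data known, all these counts only describe the list. Cldn5 alone was removed by the filter.

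The 39 genes had 60 tested probe sets. None of the 60 passed limma's adjusted threshold, where 0.0259% of all 27022 probe sets passed as higher and 0.0185% as lower, while 17 were higher and 4 lower at an unadjusted p under 0.05, where 7.31% and 5.33% of all probe sets were. The groups did not overlap in 14 probe sets that were higher and 3 that were lower, where 4.44% and 3.19% of all were so. There were 40 positive and 20 negative differences, where all probe sets had 53.8% and 46.2%. Probe sets of 1 gene share its transcripts and are not independent.

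Among the 21 genes above background on all 8 arrays, 12 had positive and 9 negative differences, where 49.6% and 50.4% of the 7755 genes above background on all arrays had them, and the median was 0.18. None passed limma's adjusted threshold, where 0.0645% of the 7755 passed as higher and 0.0387% as lower. The median of the 7755 genes was -0.002. At an unadjusted p under 0.05, 5 of the 21 were higher and 2 lower, where 6.15% and 5.73% of the 7755 were. For 3 of the 21 every mutant value exceeded every control value, where 4.87% of the 7755 did, and for 2 every mutant value was below every control value, where 3.78% did. Without controls 2 and 3 the median of the 21 was 0.01 in a fit without array weights and 0.06 with them, while 5 and 2 genes, or 5 and 1 with weights, had an unadjusted p under 0.05 as higher and lower, where 4.47% and 2.91% of all tested probe sets did without weights and 4.04% and 2.45% with them. Relative to the median of all tested probe sets, 12 of the 21 were higher with quantile normalization, 15 with the authors' scaling and 18 with median-centred arrays. In whole pools fewer cells of a type and less RNA per cell cannot be told apart.

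**Figure D2:**
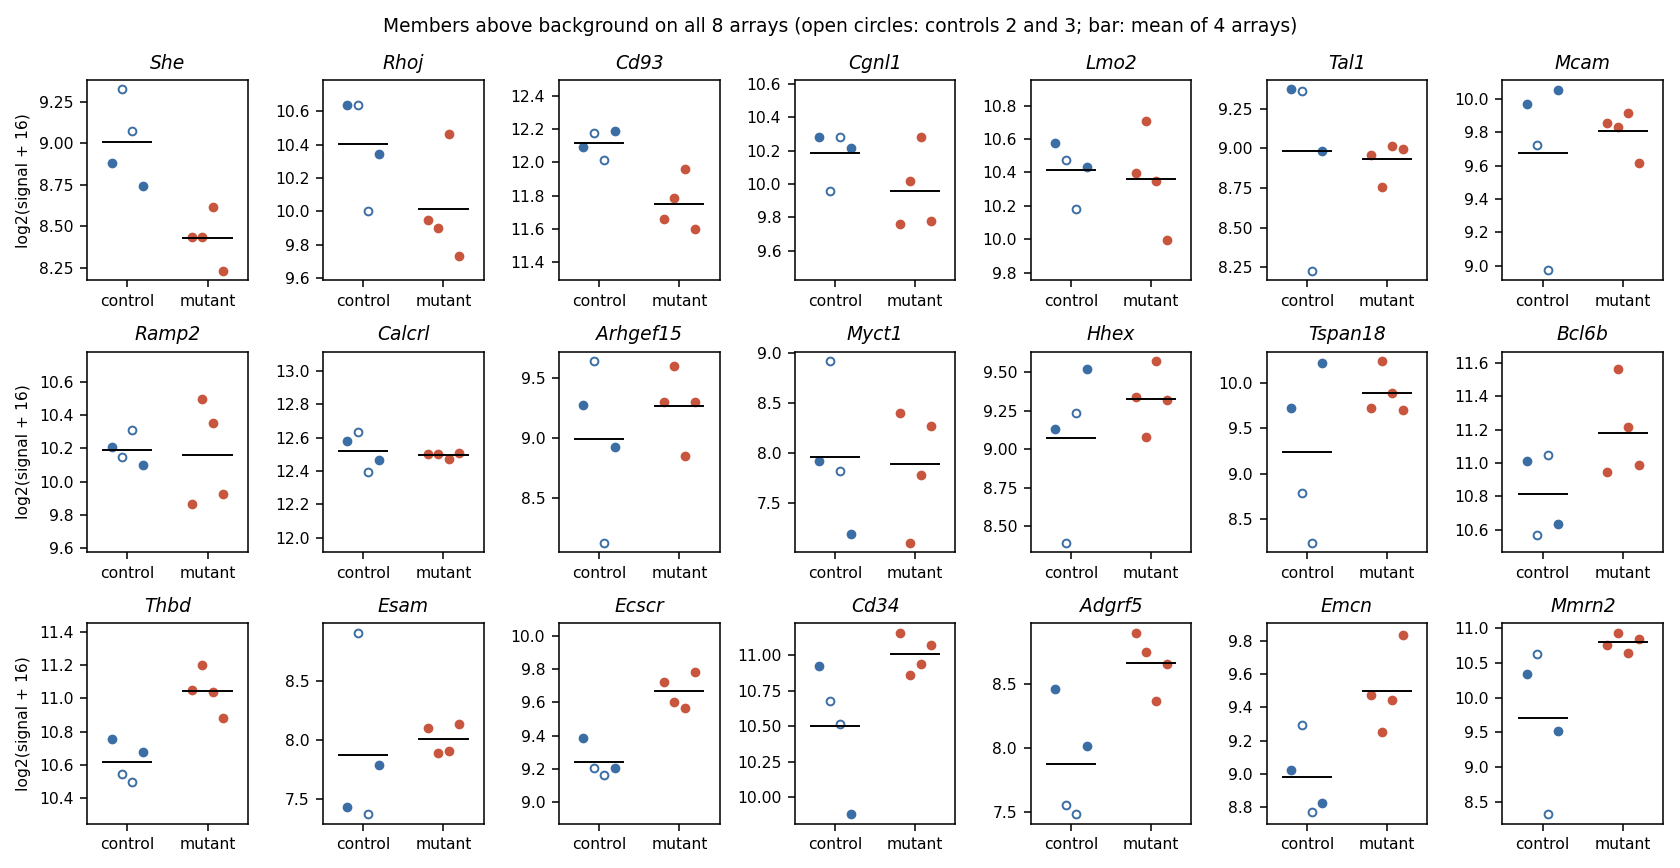
Each panel plots log2(signal + 16) of 1 of the 21 genes above background on every array, in the order of their log2 difference, with the arrays of a group from left to right by replicate number, open circles for controls 2 and 3 and a bar at the mean of 4 arrays. In Thbd, Ecscr and Mmrn2 all mutant points lie above all control points, in She and Cd93 all lie below, and in the other 16 the groups overlap. The values are quantile normalized, and in the deposited signals the groups of Ecscr and Cd93 overlapped.

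Whether any of the genes passed depended on which arrays were in the fit. With control 1 left out 7 passed as higher, and with control 4 left out 7 passed as higher as well, whereas the fit over all 8 arrays passed none. Clec14a, Plvap, Egfl7, Icam2, Vwf and Gja4 were in both sets, Cd34 was in the former and Tspan18 in the latter. Of those in both sets, all but Egfl7 were below background on both control 2 and control 3, which these fits keep. Among controls Vwf was above background on control 1 alone, and it is not sized. The difference of Tspan18 was negative without controls 2 and 3. Over the whole table the fits without control 1 and without control 4 called 1402 and 1346 probe sets higher, against 7 with all arrays. The median of the 39 genes was 0.42 without control 1 and 0.38 without control 4, against 0.24. That of the 21 genes was 0.32 without control 1, 0.12 without control 2, 0.06 without control 3, 0.08 without mutant 1 and 0.06 without mutant 4, against 0.18. Clec14a alone passed without control 3, and Cd93 passed as lower without mutant 3 (-0.46, limma adjusted p = 0.0196). With each array centred on its median, 29 endothelial genes passed as higher and 2 as lower, but the median of all tested probe sets was then itself 1.13.

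The promoters of 5 genes are shown because these had the smallest unadjusted p among the genes with values on every array given here whose start is in the RefSeq promoter table (GRCm38.p6). Cd93, Mmrn2, Thbd and Ecscr, which had smaller p than the last of them, were not matched. Each sequence is the 250 bases before the first listed start, written 5′ to 3′ along the gene, with capitals for ETS motifs (CCGGAA or CAGGAA) and GATA motifs (AGATAA or TGATAA) on either strand; no motif contains another, and overlapping matches were counted. Those of Clec14a (chr12:58269259-58269508, minus strand), Emcn (chr3:137340828-137341077, plus strand), Cd34 (chr1:194938571-194938820, plus strand), She (chr3:89831120-89831369, plus strand) and Rhoj (chr12:75308063-75308312, plus strand) read as follows.
Clec14a: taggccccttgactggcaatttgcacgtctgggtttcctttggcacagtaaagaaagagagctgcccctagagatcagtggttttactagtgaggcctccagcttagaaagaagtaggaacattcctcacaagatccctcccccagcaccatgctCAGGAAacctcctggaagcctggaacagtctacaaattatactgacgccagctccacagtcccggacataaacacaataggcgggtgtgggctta
Emcn: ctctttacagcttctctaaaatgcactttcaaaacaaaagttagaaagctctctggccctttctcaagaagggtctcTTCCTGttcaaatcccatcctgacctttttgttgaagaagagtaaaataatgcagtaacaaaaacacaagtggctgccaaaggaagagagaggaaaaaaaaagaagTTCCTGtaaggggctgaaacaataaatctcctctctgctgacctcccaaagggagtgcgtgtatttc
Cd34: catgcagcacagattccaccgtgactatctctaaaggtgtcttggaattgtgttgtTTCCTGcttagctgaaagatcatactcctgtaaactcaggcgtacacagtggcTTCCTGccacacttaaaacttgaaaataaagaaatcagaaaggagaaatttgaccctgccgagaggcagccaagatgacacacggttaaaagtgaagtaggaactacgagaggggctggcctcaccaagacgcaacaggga
She: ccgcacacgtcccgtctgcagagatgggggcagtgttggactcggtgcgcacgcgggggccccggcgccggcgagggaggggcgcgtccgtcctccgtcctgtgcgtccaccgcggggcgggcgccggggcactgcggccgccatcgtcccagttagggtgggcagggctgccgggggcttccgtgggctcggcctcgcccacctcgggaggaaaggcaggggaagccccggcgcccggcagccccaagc
Rhoj: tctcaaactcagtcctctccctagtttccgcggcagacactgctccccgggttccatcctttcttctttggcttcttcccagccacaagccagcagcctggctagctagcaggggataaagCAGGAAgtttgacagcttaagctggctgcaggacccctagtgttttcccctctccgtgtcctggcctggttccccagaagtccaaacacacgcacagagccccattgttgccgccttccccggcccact
The capitals are all ETS motifs of the form CAGGAA or its complement, beginning 95 bases before the start in Clec14a, 173 and 67 in Emcn, 194 and 141 in Cd34 and 129 in Rhoj, and the window of She holds none. GATA motifs were in none of the 5 windows.

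Of the 40 endothelial genes, 23 were in the promoter table. At least 1 ETS motif stood in 18 of these 23 windows (78.3%), compared with 34.9% of the windows of all 27025 listed genes and 39.5% of those of 9758 genes tested on the arrays. ETS factors are transcription factors, several of which are known for a part in endothelial gene expression. At least 1 GATA motif stood in 2 of the 23 windows (8.7%), those of Tal1 and Myct1, compared with 17% of all listed and 9.37% of tested genes. A match of letters is a description of the window and shows no binding.

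Of the 8 surface glycoproteins and their matrix ligand 7 had positive differences and Cd93 a negative one, which turned positive relative to all probe sets with median-centred arrays, and none passed. Clec14a is a C-type lectin of the endothelial surface. Its log2 values were 8.36, 7.13, 5.65 and 7.81 in controls 1 to 4 and 9.16, 8.52, 9.57 and 9.76 in mutants 1 to 4. All mutant values exceeded all control values after normalization, and control 3 was lowest by far. In the deposited signals the groups overlapped, with controls 1 and 2, at 292.8 and 277.4, above mutant 2, at 259.1. Its difference was 1.70 (SE 0.38, limma adjusted p = 0.146), the largest that can be sized here, and it was 1.17 without controls 2 and 3 in the fit without weights. Only 2 control arrays, but all 4 mutant arrays, had it above background. Its dimmer probe set had a difference of 0.90 (SE 0.30), also with no overlap after normalization. In the deposited signals of that probe set control 3, at 260.6, lay above every mutant array.

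Mmrn2 encodes multimerin 2, a matrix glycoprotein of vessels that binds both Clec14a and Cd93. Its values were 10.33, 10.63, 8.32 and 9.52 in controls 1 to 4 and 10.76, 10.93, 10.63 and 10.84 in mutants 1 to 4. Control 3 lay more than 1 log2 unit below every other array, and the mutant values were close together, with control 2 just under the lowest of them and equal to it at 2 decimals. The difference was 0.88 (SE 0.26, limma adjusted p = 0.253), and 0.86 without controls 2 and 3. The next probe set gave 0.84 (SE 0.21) with no overlap, while the remaining 2, also above background on all arrays, gave 0.32 and -0.09 with overlap, so the direction depended on the probe set.

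Cd93, the other partner of multimerin 2, is a C-type lectin receptor like Clec14a. Its values were 12.09, 12.18, 12.01 and 12.19 in controls 1 to 4 and 11.66, 11.79, 11.96 and 11.60 in mutants 1 to 4. Every mutant array lay below every control array in these normalized values, the reverse of the other members of this trio. In the deposited signals the groups overlapped, with mutant 3, at 4248, above controls 2 and 3, at 3840 and 3532. The difference was -0.35 (SE 0.10, limma adjusted p = 0.24), and -0.39 without controls 2 and 3, although with median-centred arrays Cd93 lay 0.21 above the median of all tested probe sets. A second probe set above background on all arrays gave -0.41 (SE 0.13), again with no overlap.

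Sialomucins are heavily glycosylated proteins of the surface that faces the blood. Endomucin (Emcn), which is known as a marker of endocardium, had values of 9.03, 9.29, 8.77 and 8.83 in controls 1 to 4 and 9.47, 9.25, 9.44 and 9.83 in mutants 1 to 4. Control 2 lay just above mutant 2, and the groups overlapped only there. The difference was 0.59 (SE 0.19, limma adjusted p = 0.255). Cd34, a sialomucin of endothelial and blood progenitor cells, had values of 10.93, 10.68, 10.52 and 9.88 in controls 1 to 4 and 11.16, 10.87, 10.94 and 11.07 in mutants 1 to 4. Control 4 was lowest and control 1 lay within the mutant range. Its difference was 0.48 (SE 0.17, limma adjusted p = 0.304), and 0.61 without controls 2 and 3.

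Ecscr, a surface protein that regulates endothelial migration, had values of 9.39, 9.21, 9.16 and 9.21 in controls 1 to 4 and 9.72, 9.61, 9.56 and 9.78 in mutants 1 to 4. The control arrays were close to each other and all mutant values lay above them after normalization. In the deposited signals mutant 2, at 669.2, lay below control 2, at 683. The difference was 0.38 (SE 0.15, limma adjusted p = 0.341), and 0.37 without controls 2 and 3. Plvap, which forms the diaphragms of endothelial pores and caveolae, had 6.64 ± 1.66 in the controls and 8.70 ± 0.42 in the mutants (SD, n = 4 each). Its difference of 1.36 (SE 0.45, limma adjusted p = 0.284) was 0.64 without controls 2 and 3, the 2 arrays on which it was not above background. Robo4, a roundabout receptor that stabilises vessels, was above background on 1 control and 4 mutant arrays, so no size is given.

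Of 7 junction and adhesion genes tested none passed. Pecam1, the adhesion molecule CD31 of endothelial contacts, had values of 7.14, 6.51, 8.28 and 8.32 in controls 1 to 4 and 7.91, 7.89, 8.20 and 8.16 in mutants 1 to 4. Controls 1 and 2 lay below all mutant arrays and controls 3 and 4 above all of them. The difference was 0.54 (SE 0.32, limma adjusted p = 0.489), but -0.13 once median-centred arrays were read against all probe sets. Cldn5, a claudin of endothelial tight junctions, had values of 7.23, 5.03, 6.12 and 5.06 in controls 1 to 4 and 7.10, 6.66, 6.04 and 6.64 in mutants 1 to 4, and it was above background on control 1 alone among controls and on all mutant arrays. It was removed by the filter and is not sized. Gja4, which encodes the gap junction protein connexin 37, had 6.78 ± 0.43 in the controls and 8.15 ± 0.12 in the mutants (SD, n = 4 each). All mutant arrays lay above all controls, with a difference of 1.17 (SE 0.30, limma adjusted p = 0.2), and 1.01 without controls 2 and 3. It too was above background on 2 of 4 control arrays.

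Icam2, an adhesion molecule for leukocytes, was above background on 2 control and 4 mutant arrays, with a difference of 0.89 (SE 0.38, limma adjusted p = 0.363) that was 0.43 without controls 2 and 3. Icam1, its inducible relative, was above background on 1 control array. Cgnl1, Mcam and Esam were above background on all 8 arrays. Cgnl1, which encodes paracingulin of the junction's cytoplasmic side, differed by -0.23 (SE 0.16, limma adjusted p = 0.559), and Mcam, the adhesion molecule CD146, by -0.05 (SE 0.17, limma adjusted p = 0.926). The 2 dimmer tested probe sets of Cgnl1 gave 0.74 and 1.004, each above background on 2 of 4 control arrays. Esam, an adhesion molecule of tight junctions, had 7.88 ± 0.71 in the controls and 8.01 ± 0.13 in the mutants (SD, n = 4 each), with control 2 highest, and a difference of 0.33 (SE 0.27, limma adjusted p = 0.629), which became -0.45 relative to all probe sets with median-centred arrays.

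Among genes of haemostasis, Thbd encodes thrombomodulin, the receptor that turns thrombin toward activation of protein C. It had values of 10.76, 10.55, 10.50 and 10.68 in controls 1 to 4 and 11.05, 11.20, 11.04 and 10.88 in mutants 1 to 4. The mutant arrays all lay above the controls, with narrow spread in both groups. The difference was 0.33 (SE 0.11, limma adjusted p = 0.278), a 1.26-fold higher level, and 0.33 without controls 2 and 3. Procr, the protein C receptor that works beside thrombomodulin, had 7.37 ± 1.14 in the controls and 6.95 ± 0.55 in the mutants (SD, n = 4 each). Its probe set may also hybridise with further transcripts (suffix _s_at) and differed by 0.01 (SE 0.46, limma adjusted p = 0.994), and its sign varied between settings. Vwf, the von Willebrand factor that tethers platelets, was above background on 1 control array and all 4 mutant arrays and is not sized.

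Because Vwf is also made by megakaryocytes, their markers are given beside it. Of 7 such genes with a probe set 2, Pf4 and Ppbp, were above background on all arrays, none was below background on every array, and their summed signal was 1510 to 3110 in control and 974 to 1530 in mutant pools. All 6 that were tested had negative differences, and none passed. Their part in the result was not tested.

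The scavenger and hyaluronan receptors were dim. Stab1 (stabilin 1) had 7.36 ± 0.54 in the controls and 7.77 ± 0.23 in the mutants (SD, n = 4 each) and a difference of 0.14 (SE 0.31, limma adjusted p = 0.877), and Lyve1, a hyaluronan receptor of lymphatic and of early endothelium, differed by -0.53 (SE 0.47, limma adjusted p = 0.655). Both were above background on 2 control and 4 mutant arrays. Stab2 (stabilin 2) was the reverse of most genes here, with 3 control arrays and 1 mutant array above background, and is not sized. Macrophages share Stab1 and Lyve1 with endothelium. Of 13 macrophage markers only Lyz2 was above background on all arrays and Adgre1 on none. Their summed signal, which is not normalized and counts genes below background too, was 878 to 1700 in controls and 512 to 1060 in mutants. Of the 4 that were tested, 2 had positive and 2 negative differences, with a median of -0.03, and none passed. Their part was not tested.

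Signals from the blood reach endothelium through G protein-coupled receptors. Calcrl is a receptor that binds adrenomedullin when its partner Ramp2 accompanies it. Calcrl had values of 12.58, 12.63, 12.40 and 12.47 in controls 1 to 4 and 12.50, 12.50, 12.47 and 12.51 in mutants 1 to 4. Mutant values were nearly identical and sat within the control range. The difference was -0.04 (SE 0.06, limma adjusted p = 0.831), and its 95% interval ran from -0.17 to 0.09. A dimmer Calcrl probe set, above background on 3 control and 2 mutant arrays, gave -0.86 (SE 0.59) with overlap. Ramp2 had values of 10.21, 10.15, 10.31 and 10.10 in controls 1 to 4 and 9.86, 10.49, 10.36 and 9.93 in mutants 1 to 4. The mutant arrays split around the narrow control range, with a difference of -0.04 (SE 0.16, limma adjusted p = 0.943) and an interval of -0.38 to 0.30. These intervals are not adjusted for the number of genes.

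The adhesion receptor Adgrf5 had values of 8.46, 7.55, 7.48 and 8.01 in controls 1 to 4 and 8.90, 8.75, 8.37 and 8.65 in mutants 1 to 4. Only mutant 3 lay below the highest control. Its difference was 0.49 (SE 0.26, limma adjusted p = 0.433). Adgrl4, another adhesion receptor of endothelium, differed by 0.49 (SE 0.29, limma adjusted p = 0.497), S1pr1, the receptor for sphingosine 1-phosphate, by 0.42 (SE 0.33, limma adjusted p = 0.614), and Aplnr, the apelin receptor, by 0.07 (SE 0.28, limma adjusted p = 0.942). Each of these 3 missed background on 1 control array, and the groups overlapped on the brightest probe set of each. Relative to all probe sets with median-centred arrays their directions turned, to -0.20 for Adgrl4, -0.81 for S1pr1 and -0.56 for Aplnr. With 1 array left out S1pr1 ranged from -0.38 to 0.79. The dimmer probe set of Adgrl4 had every mutant value above every control value, but it was above background on 1 control array and is not sized. In its deposited signals mutant 4, at 170.8, lay below control 2, at 198.3.

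The 4 transcription factors of endothelial and blood lineages had differences on both sides of 0. Tal1, a basic helix-loop-helix factor, and Lmo2, the adaptor that links it to GATA factors, act in 1 complex. Tal1 had values of 9.37, 9.36, 8.22 and 8.98 in controls 1 to 4 and 8.96, 8.76, 9.02 and 8.99 in mutants 1 to 4. All mutant arrays lay inside the wide range set by control 3. Lmo2 had values of 10.58, 10.47, 10.18 and 10.43 in controls 1 to 4 and 10.40, 10.71, 10.35 and 10.00 in mutants 1 to 4, with mutants reaching both above and below the controls. Their differences were -0.15 (SE 0.20, limma adjusted p = 0.788) and -0.19 (SE 0.15, limma adjusted p = 0.617), with intervals of -0.57 to 0.28 and -0.52 to 0.13.

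Hhex, a homeobox factor of endothelium and liver, differed by 0.20 (SE 0.20, limma adjusted p = 0.681), and by 0.00 without controls 2 and 3. Bcl6b, a zinc finger repressor of endothelium, differed by 0.28 (SE 0.14, limma adjusted p = 0.412). Groups of all 4 factors overlapped. Blood cells express Tal1 and Lmo2 too. Of 11 erythroid markers with a probe set 7 were above background on all arrays and Hba-a1 on none. Their summed signal was 44000 to 64700 in controls and 53800 to 66100 in mutants, ranges that overlapped. Of the 10 that were tested, 2 had positive and 8 negative differences, with a median of -0.18, and none passed. Their part was not tested.

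Regulators of the cytoskeleton and adaptors divided in direction, 4 positive and 4 negative of 8, of which Rhoj, Nostrin and Myct1 turned relative to all probe sets with median-centred arrays. She, an adaptor protein with an SH2 domain, had values of 8.88, 9.32, 9.08 and 8.74 in controls 1 to 4 and 8.44, 8.44, 8.62 and 8.23 in mutants 1 to 4. Every mutant value was below every control value. The difference was -0.47 (SE 0.20, limma adjusted p = 0.363), and -0.38 without controls 2 and 3. Rhoj, a small GTPase of endothelial migration, had values of 10.64, 10.64, 10.00 and 10.34 in controls 1 to 4 and 9.95, 9.90, 10.46 and 9.73 in mutants 1 to 4. Mutants 1, 2 and 4 were below all controls and mutant 3 was among them. Its difference was -0.41 (SE 0.20, limma adjusted p = 0.405), though relative to all probe sets with median-centred arrays it was 0.03.

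Egfl7, a secreted factor of endothelium, had 7.80 ± 0.87 in the controls and 8.93 ± 0.06 in the mutants (SD, n = 4 each) on its brightest probe set, which may also hybridise with further transcripts (suffix _x_at). No values overlapped, and the difference was 0.73 (SE 0.27, limma adjusted p = 0.321), or 0.39 without controls 2 and 3. The single Egfl7 probe set above background on all 8 arrays gave -0.09 (SE 0.24) with overlap, while the other 2, above background on 7 arrays like the brightest, gave 0.47 (SE 0.27) and 0.72 (SE 0.32) with no overlap. In the deposited signals the groups overlapped on these other 2 but not on the brightest. Tspan18, a tetraspanin, differed by 0.24 (SE 0.25, limma adjusted p = 0.703), and by -0.09 without controls 2 and 3. Arhgef15, a guanine nucleotide exchange factor, and Myct1, a membrane protein of endothelium, differed by 0.10 and 0.18. Of the other Myct1 probe sets, one above background on all arrays gave 0.39 (SE 0.36), and one above background on 2 control and 4 mutant arrays gave 1.276 (SE 0.48) with no overlap. In the deposited signals of the latter mutant 2, at 99, lay below control 1, at 121.2. Rasip1, a Ras-interacting protein needed for vessel lumens, and Nostrin, which binds endothelial nitric oxide synthase, were above background on 2 control arrays and differed by -0.15 and -0.03. None of these 6 passed.

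**Figure D3:**
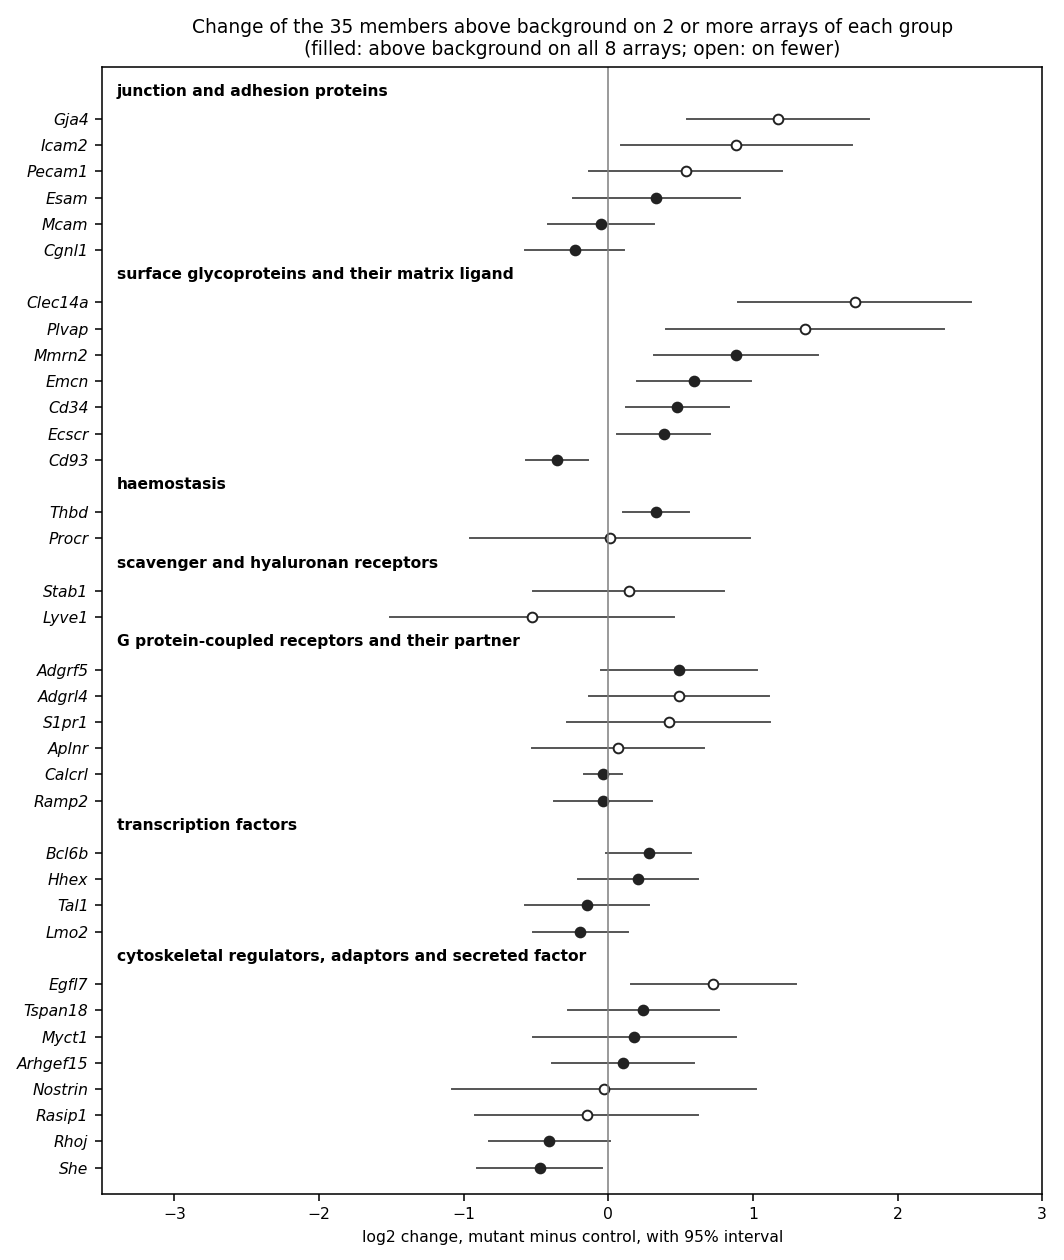
Points are log2 differences (mutant minus control) with unadjusted 95% intervals for the 35 genes above background on at least 2 arrays of each group, ordered by role, filled where a gene was above background on all 8 arrays. Clec14a and Plvap lie farthest to the right, both open, and the intervals of filled points are narrowest for Calcrl, Cd93 and Thbd.

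The dimmer genes were the ones whose detection differed between groups. Of the 19 genes not above background on all arrays, 18 were above it on at least as many mutant as control arrays, and Stab2 was the exception. They comprised 5 genes detected on 7 arrays, 8 on 6, 5 on 5 and 1 on 4. All 8 genes detected on 6 arrays were missed on controls 2 and 3, the arrays with the highest background, and their part in the result was not tested beyond the fits without those arrays.

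**Figure D4:**
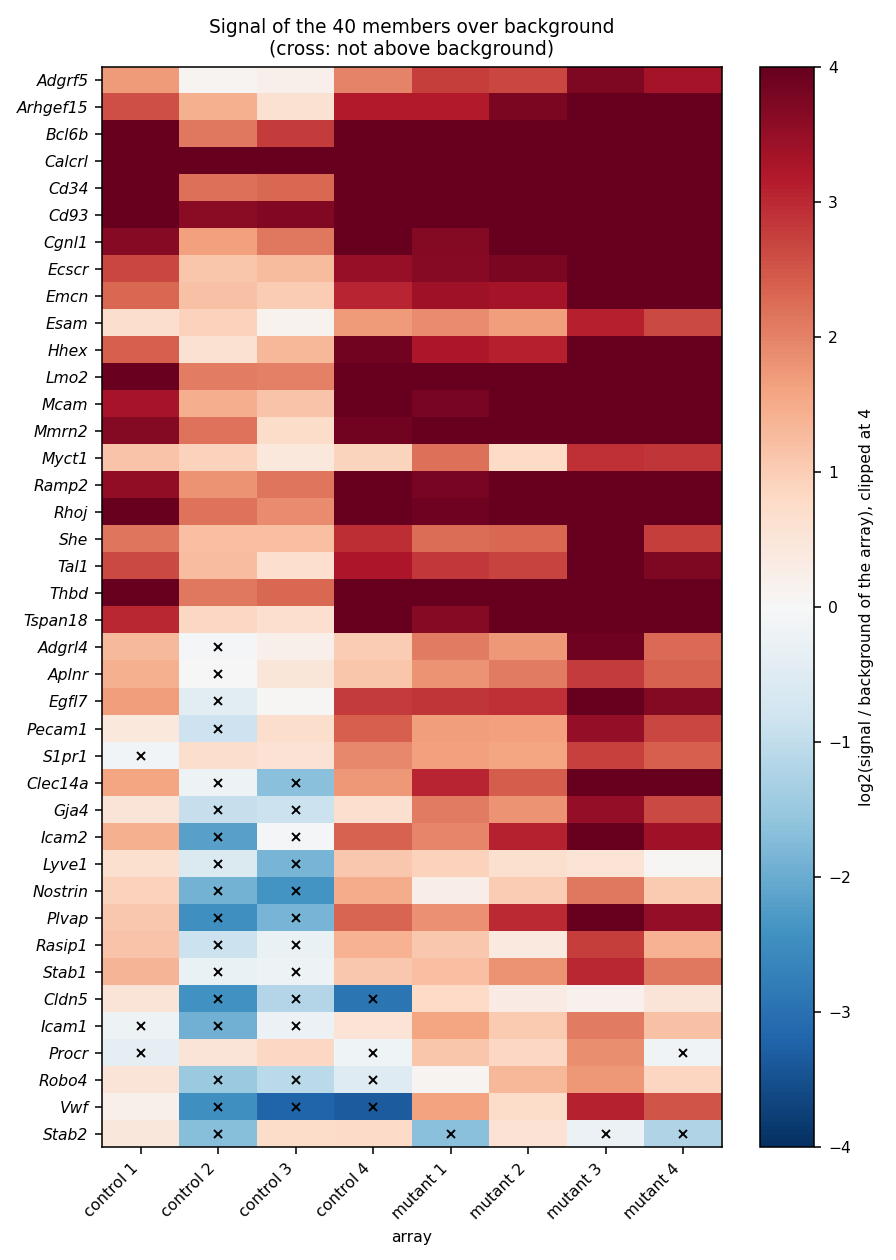
Colour gives log2 of signal over the background of the array for 40 genes (rows, by the number of arrays above background) and 8 arrays (columns), clipped at 4, with crosses where a signal was not above background. Crosses gather on controls 2 and 3, while mutant arrays show 4 crosses in all, for Procr and Stab2.

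The spread between arrays was wider among controls, which include controls 2 and 3 with their raised background. For the 21 genes above background on all arrays the median SD was 0.30 in controls and 0.20 in mutants, and for all 7755 such genes it was 0.23 and 0.16. Of 12 endothelial genes with more than 1 tested probe set, 7 had all of them in 1 direction, and in Egfl7, Mmrn2, Cgnl1, Tspan18 and Arhgef15 they differed in sign.

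Further endothelial genes outside these 40 were taken from a list of 35, of which 33 were tested. Tek, the angiopoietin receptor whose promoter drives the Cre, fell by 0.72 (limma adjusted p = 0.000172) and Epas1, a hypoxia-inducible factor, rose by 1.205 (limma adjusted p = 0.0141), and the other 31 did not pass. In all 20 had positive and 13 negative differences, with a median of 0.19, beside 0.24 for the 39 tested genes of the set described here and 0.02 for all tested genes. Cdh5, the cadherin of endothelial junctions, differed by -0.19 (SE 0.39), Kdr, the main receptor for vascular endothelial growth factor, by 0.28 (SE 0.15), and Tie1, an orphan receptor related to Tek, by 1.26 (SE 0.39). For Tie1 only 2 control arrays exceeded background.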

How the data were processed

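Gene expression was measured on 8 arrays, 4 from control and 4 from mutant pools. The deposited values are linear intensities. MAS5 is the tool named by the authors, per the submitters' processing notes; its version and settings are not given in the sources used here. As deposited, the mean signal of control 1 was 715. The table holds 45101 probe sets, 64 of them array controls. Symbols came from the platform annotation: 34958 probe sets had 1 symbol, 932 several and 9211 none, and 34754 of the first matched RefSeq genes (GRCm38.p6) by Entrez ID.

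Intensities were taken as log2(signal + 16). Arrays were quantile normalized because their 2% trimmed means differed by 1.12 times, over a limit of 1.1. Control probe sets were left out, as were those in the lowest 40% by mean value. Groups were compared in limma 3.58.1 (R 4.3.3) with array weights and eBayes with trend and robust, two-sided, with Benjamini-Hochberg adjustment over 27022 probe sets and a threshold of 0.05. The fit was tested on simulated data. Printed group means are unweighted and need not differ by exactly the fitted amount. Nothing in the labels gives the relation between pools, so p-values measure only the spread between these samples. Precision is limited by the number of arrays. Array correlations ran from 0.836 to 0.976, so no array was a copy of another.

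Members and lists were chosen with earlier results of these data known. Values on every array are given for genes above background on all 8 arrays with an unadjusted p under 0.05 or no overlap between groups, for the 3 largest differences in each direction among them, for any past the threshold, and for Pecam1, Emcn, Cldn5, Cd34, Tal1, Lmo2, Calcrl, Ramp2, Clec14a, Cd93 and Mmrn2. No size is given for a gene above background on fewer than 2 arrays of a group. Marker lists of other cell types were used for description. The list for lymphatic endothelium had 3 of 5 differences positive (median 0.12) and that for pericytes and smooth muscle 7 of 8 (0.15). Median differences were -0.16 for cushion mesenchyme (14 of 20 negative), 0.12 for cardiomyocytes (16 of 18 positive) and 0.54 for epicardium (9 of 10 positive).

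Alternatives were another scaling, pseudocount or filter, no weights, arrays left out, a replicate block and a covariate for RNA integrity.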

Additional observations from a re-analysis of the deposited data

Results flagged for a closer look

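In 80 groups of 4 arrays (40 genes, 2 groups each) 2 had a single array far from the others, where chance gives about 1 in 20. Both were controls and both concern genes above background on control 1 alone among the controls. Robo4 was 7.23 on control 1, where the next control was at 6.21. This gap is in the normalized values, and the deposited signals of Robo4 were 138.8, 113.9, 128.5 and 35.91 in controls 1 to 4. Vwf was 6.89 on control 1, where the next control was at 4.99.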

How the results depend on the processing

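Endothelial genes past the threshold numbered 0 in either direction under every alternative run except median-centred arrays and 4 of the fits that left out 1 array. With median-centred arrays 29 were higher and 2 lower, 17318 probe sets were higher and 1833 lower, the median of the tested endothelial genes was 1.424 and that of the 21 above background on all arrays 1.486 (0.352 relative to all probe sets), and 0 genes had all mutant values below the controls. Leaving out 1 array gave 0 to 7 endothelial genes higher and 0 to 1 lower, 8 to 13 without overlap and higher, 2 to 3 without overlap and lower, 3 to 1402 probe sets higher and 2 to 387 lower, a median of 0.219 to 0.42 for tested and 0.063 to 0.317 for the 21 genes. Of all probe sets, 4.44% were higher and 3.19% lower without overlap with all arrays, 7.36% and 5.52% without control 1, and 11.9% and 8.58% without control 4. Probe sets called higher and lower, 7 and 5 with all arrays, were 41 and 22 with the authors' scaling (4 endothelial genes then higher without overlap and 2 lower, where 3.56% and 5.47% of all probe sets were), 22 and 12 with a pseudocount of 64, 14 and 12 with no filter, 6 and 10 without weights, and 2 and 2 with the 3′ to 5′ ratio as a covariate. Without controls 2 and 3 they were 1 and 1 with or without weights, the median of the 21 genes was 0.006 without weights, and in both fits 10 endothelial genes were higher and 6 lower with no overlap, where 8.36% and 8.03% of all probe sets were. The cause was not tested.

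With the replicate number as a block (replicate block) 26 probe sets were higher and 34 lower, no endothelial gene passed and their median was 0.266. Deviations of arrays with the same number correlated at -0.115, 0.006, -0.126 and 0.169, so the numbers were not taken to pair the pools.

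Log2 differences that changed sign were, with the authors' scaling, Aplnr -0.351, Calcrl 0.066, Stab1 -0.338, Procr -0.618 and Myct1 -0.097. With median-centred arrays they were Tal1 1.192, Lmo2 1.424, Rasip1 0.529, Cgnl1 1.23, Ramp2 1.367, Calcrl 1.731, Cd93 1.341, Lyve1 0.286, Procr -1.099, Mcam 1.64, Rhoj 1.159, She 0.258 and Nostrin 1.578, and relative to all probe sets Pecam1 -0.126, Esam -0.454, Tal1 0.058, Lmo2 0.289, Adgrl4 -0.202, Cgnl1 0.096, Aplnr -0.564, Ramp2 0.232, Calcrl 0.596, S1pr1 -0.811, Cd93 0.207, Stab1 -0.251, Procr -2.233, Mcam 0.506, Rhoj 0.025, Myct1 -0.641 and Nostrin 0.444. Without weights they were Rasip1 0.057, Procr -0.422, Mcam 0.127, Myct1 -0.074 and Nostrin 0.598, with no filter Procr -0.236, Mcam 0.041 and Nostrin 0.294, and with probe sets above background on at least 4 arrays Procr -0.016 and Nostrin 0.013. With the 3′ to 5′ covariate they were Aplnr -0.01, Ramp2 0.031 and Stab1 -0.046. Without controls 2 and 3 they were Ramp2 0.006 and Tspan18 -0.085 without weights and Tspan18 -0.134 with them. A pseudocount of 1 gave Nostrin 0.068, a pseudocount of 64 Procr -0.023 and the replicate block Procr -0.106. Genes that changed sign with 1 array left out ranged over Tal1 -0.319 to 0.241, Rasip1 -0.365 to 0.488, Calcrl -0.066 to 0.011, S1pr1 -0.377 to 0.791, Lyve1 -0.79 to 0.312, Procr -1.129 to 0.358, Mcam -0.176 to 0.377, Myct1 -0.248 to 0.305, Nostrin -0.461 to 1.414, Aplnr -0.076 to 0.261, Stab1 -0.118 to 0.726, Arhgef15 -0.054 to 0.42 and Ramp2 -0.16 to 0.062. The cause was not tested. The raised background of controls 2 and 3 limits what can be said of the 19 genes not above it on every array; with the highest bacterial probe set as threshold 19 genes were above background on all arrays, and with their median 30.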
